A study of Mus musculus with 10 samples.

Results

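The replication-dependent histone genes of differentiating MC3T3 cells were taken as every gene row whose name starts with Hist1h, Hist2h, Hist3h or Hist4, which gave 68 of the 23358 rows in the gene count table. By name these rows divide into 6 linker histone H1 rows, 18 H2A rows, 19 H2B rows, 12 H3 rows and 13 H4 rows. The H2B rows include Hist3h2bb-ps, a pseudogene by its name. The Hist1 cluster on chromosome 13 held 54 of them, the Hist2 cluster on chromosome 3 held 10, chromosome 11 held 3 Hist3 rows, and chromosome 6 held Hist4h4 alone (mm10). MC3T3 is a line of pre-osteoblasts from mouse calvaria. The cells were cultured in osteogenic medium, which contained ascorbic acid and beta glycerol phosphate, with GSK126 at 5 µM or with vehicle. GSK126 blocks EZH2, the enzyme of Polycomb repressive complex 2 that writes the repressive mark H3K27me3. Both GSK126 and vehicle were given at the start and again on day 3 and were withdrawn on day 6, so cells harvested on day 10 had been without either since day 6. The 6 RNA groups were GSK126 on day 3, vehicle on day 3, GSK126 on day 6, vehicle on day 6, GSK126 on day 10 and vehicle on day 10, each with 1 library, and H3K27me3 was profiled after 24 hours with 1 ChIP and 1 input library for each treatment.

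Replication-dependent histone genes supply the bulk of nucleosomal histones and of linker histone during S phase, when DNA is copied. They are short genes without introns whose messenger RNA normally ends in a conserved stem-loop, bound by the stem-loop binding protein SLBP, instead of a poly(A) tail. Some of them can also give a longer, polyadenylated transcript that reads past the stem-loop, a form described in cells that leave the cell cycle and differentiate. The RNA libraries were prepared with a kit that selects poly(A) RNA and does not mark strand, which favours polyadenylated forms; which form of histone RNA gave the reads was not tested.

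The libraries held 97291878 to 111537936 gene counts, all of them even numbers, which is what counting both read ends of each fragment would give. Between 0.00269% and 0.00623% of the counts lay on the histone members, against 4.37% to 7.47% on Rn45s, the ribosomal RNA precursor. The 7 osteoblast-lineage markers, among them Runx2, Sp7 and Col1a1, summed to between 54512 and 76244 CPM in every library (counts scaled by library size with edgeR's TMM factors). All 4 markers of each other cell type were in the table: adipocyte markers summed to 0.0693 to 0.626 CPM, endothelial markers to 0.0585 to 0.281, blood markers to 8.38 to 20.6 and skeletal muscle markers to 2.50 to 4.73, with Hba-a1, Kdr and Myod1 at 0 throughout.

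The promoters of the members are shown first because they carry the elements by which the family is best known, and because H2A and H2B genes often share one. There were 12 pairs of an H2A and an H2B gene lying side by side, with 163 to 280 bases between their RefSeq genes (GRCm38.p6). Among them is Hist3h2a, whose partner is the pseudogene Hist3h2bb-ps. The windows below are the 150 bases before the start of the transcript from RefSeq (GRCm38.p6, the assembly that mm10 names), read 5′ to 3′ on the strand of the gene, for an H1 gene of high counts and one whose counts changed with the day, for an H2B gene and an H2A gene of the divergent pairs, and for the H4 gene with the most counts. Capitals mark 4 motifs on either strand: the box with the letters CCAAT, the TATA box searched as TATAAA, the H1 box searched as AAACACA, and the octamer searched as ATTTGCAT. None of the motifs contains another. Hist1h1c lies at chr13:23738657-23738806 (plus strand), Hist1h1d at chr13:23554882-23555031 (plus), Hist1h2bg at chr13:23571250-23571399 (plus), Hist1h2ac at chr13:23683960-23684109 (minus) and Hist1h4i at chr13:22041363-22041512 (minus).
Hist1h1c: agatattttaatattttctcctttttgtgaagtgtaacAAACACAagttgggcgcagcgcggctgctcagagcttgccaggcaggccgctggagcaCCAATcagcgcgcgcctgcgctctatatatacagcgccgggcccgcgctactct
Hist1h1d: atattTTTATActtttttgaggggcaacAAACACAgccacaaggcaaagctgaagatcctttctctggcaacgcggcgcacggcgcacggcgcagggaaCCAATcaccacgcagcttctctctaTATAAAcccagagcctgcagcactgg
Hist1h2bg: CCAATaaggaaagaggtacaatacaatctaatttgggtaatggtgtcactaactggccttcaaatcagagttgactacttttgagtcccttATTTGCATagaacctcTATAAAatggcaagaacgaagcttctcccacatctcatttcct
Hist1h2ac: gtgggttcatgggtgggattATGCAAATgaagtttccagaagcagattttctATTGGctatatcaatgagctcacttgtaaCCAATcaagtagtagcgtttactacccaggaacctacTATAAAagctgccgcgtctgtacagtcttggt
Hist1h4i: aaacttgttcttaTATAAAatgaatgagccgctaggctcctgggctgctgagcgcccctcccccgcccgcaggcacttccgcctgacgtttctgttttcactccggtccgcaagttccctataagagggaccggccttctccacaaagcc

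Both H1 windows hold the H1 box well upstream and CCAAT nearer the start. The H2B and H2A windows hold the octamer as well as a CCAAT and a TATA box. Of these motifs the H4 window holds only the letters TATAAA, near its upstream end and far from the start. RefSeq promoters were on hand for 61 of the members, with 62 windows. CCAAT occurred in 82.3% of these windows, against 24.5% of 32851 windows of the same length over all genes. It was present in 6 of 6 H1, 17 of 17 H2A and 17 of 17 H2B windows, in 8 of 10 H3 windows and in 3 of 12 H4 windows. TATAAA was found in 38.7% of member windows (7.57% of all windows) and the octamer in 17.7% (0.998%), the octamer in 5 H2A and 6 H2B windows. The H1 box stood in 12.9% of member windows (3.53% of all), 5 of them among the 6 H1 windows. Neighbouring H2A and H2B windows share letters, so they are not independent, and a match in letters is a description of the sequence only.

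Most histone rows held very few counts. All 6 libraries were at 0 for 11 members (16.2%, against 20.9% of all rows), where a count of 0 allows up to 3 fragments, or 0.0520 to 0.0636 CPM depending on the library. Of these, 6 share bases with the span of another row, among them Hist1h2bq and Hist1h2br, whose rows are the same interval, so reads of theirs may have been left out as ambiguous, which was not tested. A further 37 members had counts but too few to be tested, none above 24 counts in a library. That highest value belonged to Hist1h1t, the testis-specific H1, which had 24 counts with GSK126 and 16 with vehicle on day 3, 0 with GSK126 and 0 with vehicle on day 6, and 2 with GSK126 and 0 with vehicle on day 10. The testis pair Hist1h2aa and Hist1h2ba stood at 0. The filter on low counts left 20 members (29.4%), against 61.4% of all rows. They were 4 H1, 6 H2A, 5 H2B, 2 H3 and 3 H4 genes, and none of the 9 Hist1 H3 rows was among them, so that H3 was tested through the Hist2 cluster alone. What follows therefore concerns the members with measurable counts and not the family as a whole.

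Most member counts lay on the longer deposited rows. The exon length of a member row ranged between 312 and 4242 bases with a median of 479. The 15 rows over 1000 bases held 79.1% of all member counts and 57.4% of the exon length. Once Hist1h1c is set aside they held 58.7% of the counts, near that share of length, which still includes Hist1h1c. Of these rows 11 were tested, against 9 of the 53 shorter rows, and the median level was 0.251 CPM per kilobase (kb) against 0.0623. The filter works on counts that are not scaled for length, so a longer row passes it more easily. The row of Hist1h1c covers 1561 bases where its RefSeq gene spans 725, that of Hist1h1d 2977 against 776, that of Hist3h2a 1990 against 508 and that of Hist4h4 2879 against 439. In all, 20 of 67 matched rows were longer than the RefSeq gene by 100 bases or more, and 12 of them were tested. Not every row over 1000 bases is such a row: that of Hist2h2be covers 2618 bases where its RefSeq gene spans 2667. Nor did every long row have counts: Hist1h2bq, with 4242 bases, stood at 0. The boundary of 1000 bases was set after the lengths had been seen, and which transcript end gave the reads cannot be read from gene totals.

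**Figure D1:**
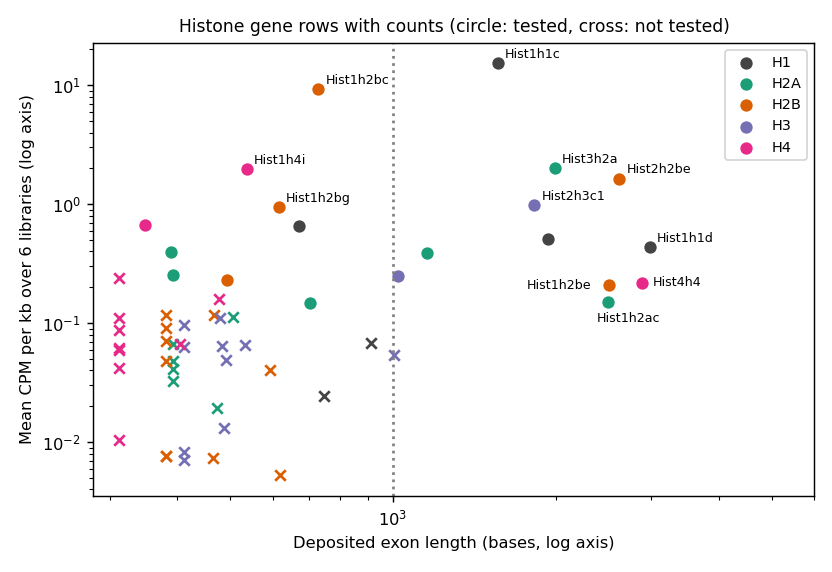
Deposited exon length in bases (x, log axis) against mean CPM per kb over the 6 libraries (y, log axis) for the 57 histone rows with at least 1 count, coloured by histone type. Circles are the 20 tested members and crosses the 37 others, the dotted line stands at 1000 bases, and Hist1h1c and Hist1h2bc lie highest at 15.3 and 9.23 CPM per kb.

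The scatter of length and level shows both groups of rows. Long rows spread over a wide range of levels, from 0.0536 CPM per kb for Hist1h3f to 15.3 for Hist1h1c. Most short rows of Hist1 lie low, but Hist1h2bc, Hist1h4i, Hist1h2bg and Hist1h1b are short rows with high levels per kb. The short Hist2 row Hist2h4 also lies above most long rows, at 0.665. The exon length of Hist1h2bc, 728 bases, is spread over a span of 8282 bases, so that this H2B gene is annotated with an intron.

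Summed over all members, histone RNA was lowest on day 6 under both treatments. The sums were 57.0 CPM with GSK126 and 60.2 with vehicle on day 3, 35.7 with GSK126 and 27.5 with vehicle on day 6, and 59.3 with GSK126 and 53.8 with vehicle on day 10. From 1 library against 1, the fold of day 6 over day 3 was 0.626 with GSK126 (95% interval 0.591 to 0.664, counting error only) and 0.456 with vehicle (0.429 to 0.486). Day 10 over day 6 was 1.66 with GSK126 (1.57 to 1.77) and 1.96 with vehicle (1.84 to 2.09). The fold of GSK126 over vehicle was 0.946 on day 3 (0.901 to 0.992), 1.30 on day 6 (1.21 to 1.39) and 1.10 on day 10 (1.04 to 1.16). The direction on days 6 and 10 rests on the highest members: without the highest member of each type, which left 63 rows, the folds were 0.883 and 0.874. In bulk RNA, fewer cells making a transcript and less of it per cell cannot be told apart.

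**Figure D2:**
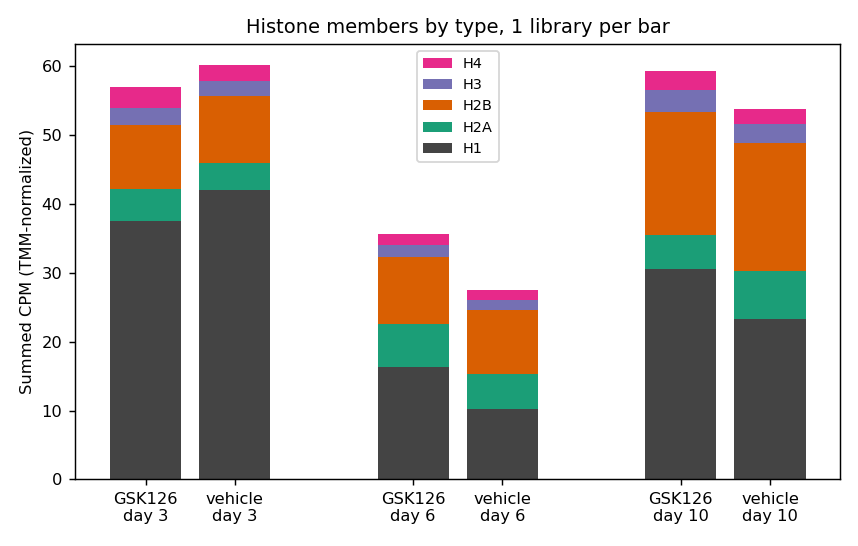
Summed TMM-normalized CPM of the members (y) in each of the 6 libraries (x), stacked by histone type, with 1 library per bar and no error bar. H1 makes up most of the day 3 bars and differs most between days 3 and 6. H2B is highest on day 10, which with GSK126 rests on Hist1h2bc.

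The stacked sums, which are not scaled for length, separate the types. H1 stood at 37.5 CPM with GSK126 and 42.0 with vehicle on day 3, 16.3 with GSK126 and 10.3 with vehicle on day 6, and 30.5 with GSK126 and 23.2 with vehicle on day 10. H2B stood at 9.32 with GSK126 and 9.77 with vehicle on day 3, 9.61 with GSK126 and 9.28 with vehicle on day 6, and 17.9 with GSK126 and 18.6 with vehicle on day 10. The day 6 level of H2B was thus close to that of day 3. H2A was between 3.90 and 6.98 CPM, with GSK126 above vehicle on day 3 (4.62 against 3.90 in vehicle) and day 6 (6.32 against 5.11 in vehicle) and below it on day 10 (4.98 against 6.98 in vehicle). This pattern rests in part on the highest member, Hist3h2a: without it the H2A fold of GSK126 over vehicle was 0.925 on day 3, 1.15 on day 6 and 0.969 on day 10, and the fold of day 6 over day 3 was 0.685 with GSK126 and 0.550 with vehicle, where with it these were 1.37 and 1.31. Without Hist1h2bc the H2B fold of day 6 over day 3 was 0.776 with GSK126 and 0.877 with vehicle. The H2B fold of day 10 over day 3 was 0.927 with GSK126 and 1.29 with vehicle without Hist1h2bc, where with it these were 1.92 and 1.91. H3 and H4 had the lowest sums. H3 was at 2.54 with GSK126 and 2.18 with vehicle on day 3, 1.88 with GSK126 and 1.42 with vehicle on day 6, and 3.20 with GSK126 and 2.73 with vehicle on day 10. H4 was at 2.97 with GSK126 and 2.39 with vehicle on day 3, 1.56 with GSK126 and 1.40 with vehicle on day 6, and 2.71 with GSK126 and 2.27 with vehicle on day 10. Both types were lowest on day 6, and GSK126 was above vehicle on each day. Without the highest member of each, GSK126 over vehicle was 1.36, 1.35 and 1.58 for H3 on days 3, 6 and 10, but for H4 the folds were 1.25 on day 3, 0.933 on day 6 and 0.969 on day 10. The direction for H4 on the later days therefore rests on Hist1h4i. By cluster, the summed CPM was lowest on day 6 under both treatments in Hist1 and Hist4. Hist1 stood at 46.0 CPM with GSK126 and 50.9 with vehicle on day 3, 23.8 with GSK126 and 16.0 with vehicle on day 6, and 47.4 with GSK126 and 37.3 with vehicle on day 10. On day 6 the Hist1 fold of GSK126 over vehicle was 1.49, and 1.04 without the highest member of each type. Hist4, which is Hist4h4 alone, stood at 0.790 with GSK126 and 0.693 with vehicle on day 3, 0.343 with GSK126 and 0.390 with vehicle on day 6, and 0.679 with GSK126 and 0.888 with vehicle on day 10. Hist2 stayed between 6.18 and 10.1 CPM, lowest on day 6 with GSK126 but on day 3 with vehicle. Hist3 stayed between 2.30 and 5.52. Single Hist2 genes mostly dipped as well. Of the 8 tested, 6 had negative fitted values for day 6 against day 3. For day 10 against day 6, 7 were positive. Hist2h2be, the Hist2 row with the most counts, was not lowest on day 6 under either treatment.

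Among the linker histones, which bind the DNA where it enters and leaves the nucleosome, Hist1h1c (H1.2) gave more counts than all other members of the family together on day 3, and it was also highest per length, at 15.3 CPM per kb. It had 3734 counts with GSK126 and 4226 with vehicle on day 3, 1514 with GSK126 and 946 with vehicle on day 6, and 2616 with GSK126 and 2072 with vehicle on day 10. The day 6 libraries are the lowest under both treatments, and vehicle lies below GSK126 on days 6 and 10 but not on day 3. Its share of the member counts was 57.5% with GSK126 and 60.8% with vehicle on day 3, 42.9% with GSK126 and 33.5% with vehicle on day 6, and 46.8% with GSK126 and 39.8% with vehicle on day 10. The fitted log2 difference of day 6 against day 3 was -1.55 (SE 0.22, edgeR's quasi-likelihood F test, Benjamini-Hochberg adjusted over all genes, adjusted p = 0.0591, n = 6 libraries), which misses the threshold of 0.05.

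Hist1h1d (H1.3) had the largest fitted change between days among the tested members. It had 296 counts with GSK126 and 406 with vehicle on day 3, 18 with GSK126 and 32 with vehicle on day 6, and 60 with GSK126 and 54 with vehicle on day 10. Every library of days 6 and 10 lies far below both day 3 libraries. Against day 3, Hist1h1d fell by 3.63 on the log2 scale on day 6 (SE 0.34, edgeR adjusted p = 0.0301) and was still lower on day 10, at -2.33 (SE 0.31, edgeR adjusted p = 0.0131). The day 6 over day 3 folds were 0.0700 with GSK126 and 0.0887 with vehicle. Both calls rest on few libraries: for day 6, the edgeR adjusted p was 0.158 without the GSK126 library of day 3, 0.0968 without the vehicle library of day 3 and 0.212 without the GSK126 library of day 6. For day 10, it was 0.0986 and 0.0682 without the GSK126 and the vehicle library of day 3, and 0.0679 without the vehicle library of day 10.

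Hist1h1b (H1.5) had 70 counts with GSK126 and 94 with vehicle on day 3, 10 with GSK126 and 18 with vehicle on day 6, and 58 with GSK126 and 30 with vehicle on day 10. Both day 6 libraries are lowest, and the 2 treatments change places between day 6 and day 10, though on day 6 they lie within counting error. Its fitted difference of day 6 against day 3 was -2.36 (SE 0.55, edgeR adjusted p = 0.109). Hist1h1e (H1.4), whose row overlaps the span of Hist1h2be, had between 56 and 144 counts, and all 4 tested H1 genes had fitted values below 0 for day 6 against day 3 (median -1.95). The remaining 2 H1 rows, Hist1h1a and Hist1h1t, were not tested.

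The core histone H2A pairs with H2B in the nucleosome. Hist3h2a, the H2A gene of the small Hist3 cluster, had the most H2A counts and the highest H2A level per length, 2.01 CPM per kb. It had 358 counts with GSK126 and 266 with vehicle on day 3, 526 with GSK126 and 434 with vehicle on day 6, and 334 with GSK126 and 532 with vehicle on day 10. GSK126 is above vehicle on days 3 and 6 and below it on day 10, while vehicle is higher on each later day. The fold of GSK126 over vehicle was 1.36, 1.26 and 0.644 on days 3, 6 and 10. A term for the GSK126 difference on day 10 against days 3 and 6 gave -1.02 for Hist3h2a (SE 0.28, unadjusted p = 0.0178 in edgeR's quasi-likelihood test across all genes, adjusted p = 0.704), which does not pass.

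Hist2h2ac, an H2A gene of the Hist2 cluster, had 16 counts with GSK126 and 14 with vehicle on day 3, 8 with GSK126 and 12 with vehicle on day 6, and 22 with GSK126 and 22 with vehicle on day 10. The treatments lie within counting error of each other on each day. The other tested H2A genes, Hist2h2aa1, Hist2h2ab, Hist1h2ac and Hist1h2ae, had between 4 and 86 counts in a library. Hist2h2aa1 shares its span with the near-identical Hist2h2aa2, which stood at 0, so the authors' counting may have placed reads of both on 1 row or dropped reads that match both. For day 6 against day 3, 3 of the 6 tested H2A genes had positive and 3 negative fitted values.

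Of the H2B genes, Hist1h2bc was the only one whose rise on day 10 against day 3 passed. Hist1h2be was also higher on day 10, at a fold of 1.86 with GSK126 (1.09 to 3.25) and 1.81 with vehicle (1.11 to 3.00). Its fitted value of 0.87 (log2, SE 0.32, edgeR adjusted p = 0.0967) did not pass. Hist1h2bc had 436 counts with GSK126 and 422 with vehicle on day 3, 530 with GSK126 and 402 with vehicle on day 6, and 1210 with GSK126 and 1040 with vehicle on day 10. Both day 10 libraries lie above the 4 others, and day 6 lies near day 3. Hist1h2bc rose by 1.65 on day 10 against day 3 (log2, SE 0.16, edgeR's quasi-likelihood F test, Benjamini-Hochberg adjusted p = 0.0103). The folds were 3.35 with GSK126 (2.87 to 3.93) and 2.94 with vehicle (2.50 to 3.47). Without the GSK126 library of day 3 the edgeR adjusted p was 0.0792 and without the vehicle library of day 10 it was 0.0596.

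Hist1h2bg went the other way, with 102 counts with GSK126 and 166 with vehicle on day 3, 14 with GSK126 and 26 with vehicle on day 6, and 36 with GSK126 and 34 with vehicle on day 10. No library of days 6 and 10 reaches those of day 3. On day 10 against day 3 it fell by 1.62 (log2, SE 0.37, edgeR adjusted p = 0.0325), and day 6 against day 3 was -2.56 (SE 0.40, edgeR adjusted p = 0.0652). The call for day 10 is lost without any 1 of the 4 libraries of days 3 and 10, with edgeR adjusted p of 0.149 and 0.184 without the GSK126 and the vehicle library of day 3, and 0.0547 and 0.153 without those of day 10. The partners across the shared promoters did not pass the test on any term: Hist1h2ac, the partner of Hist1h2bc, had 64 counts with GSK126 and 86 with vehicle on day 3, 18 with GSK126 and 12 with vehicle on day 6, and 34 with GSK126 and 26 with vehicle on day 10, and Hist1h2ae, the partner of Hist1h2bg, had 6 to 16 counts in a library. Hist1h2ac is thus lower on day 10 than on day 3 under both treatments, where Hist1h2bc is higher, although no test of that contrast was made.

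Hist2h2be, an H2B gene of the Hist2 cluster whose row is 2618 bases long, had 426 counts with GSK126 and 428 with vehicle on day 3, 358 with GSK126 and 482 with vehicle on day 6, and 336 with GSK126 and 610 with vehicle on day 10. The treatments are nearly equal on day 3 and move apart on each later day. The fold of GSK126 over vehicle was 1.01 on day 3 (0.830 to 1.22), 0.770 on day 6 (0.631 to 0.938) and 0.565 on day 10 (0.466 to 0.685), in intervals that cover counting error only. The fitted difference over all days was -0.40 (SE 0.19, edgeR adjusted p = 0.337). It shares its promoter with Hist2h2ac, which differed by less than its counting error on every day.

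Both tested H3 genes lie in Hist2, and both were higher with GSK126 than with vehicle on all 3 days. Hist2h3c1 had 204 counts with GSK126 and 188 with vehicle on day 3, 152 with GSK126 and 120 with vehicle on day 6, and 228 with GSK126 and 216 with vehicle on day 10. Hist2h3c2 had 42 counts with GSK126 and 18 with vehicle on day 3, 20 with GSK126 and 12 with vehicle on day 6, and 42 with GSK126 and 24 with vehicle on day 10. The gaps of Hist2h3c1 lie within counting error on each day. Hist2h3c2 has the larger gap, on few counts, and lies within counting error on days 6 and 10. It had the largest GSK126 difference of the 20 members, 0.96 (SE 0.34, unadjusted p = 0.0320 and adjusted p = 0.212 in edgeR's quasi-likelihood test), and Hist2h3c1 stood at 0.21 (SE 0.18, edgeR adjusted p = 0.585).

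The H4 gene Hist1h4i had 180 counts with GSK126 and 148 with vehicle on day 3, 82 with GSK126 and 64 with vehicle on day 6, and 120 with GSK126 and 76 with vehicle on day 10. GSK126 is above vehicle on all 3 days, within counting error on days 3 and 6, and day 6 is the low point with GSK126 as with vehicle. The fitted GSK126 difference was 0.47 (SE 0.22, edgeR adjusted p = 0.323) and that of day 6 against day 3 was -0.99 (SE 0.27, edgeR adjusted p = 0.124). Hist2h4 had 30 counts with GSK126 and 16 with vehicle on day 3, 14 with GSK126 and 22 with vehicle on day 6, and 38 with GSK126 and 22 with vehicle on day 10. Its treatments change order on day 6, but they lie within counting error of each other on each day. Hist4h4, the only gene of its cluster, had 34 to 90 counts in a library.

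**Figure D3:**
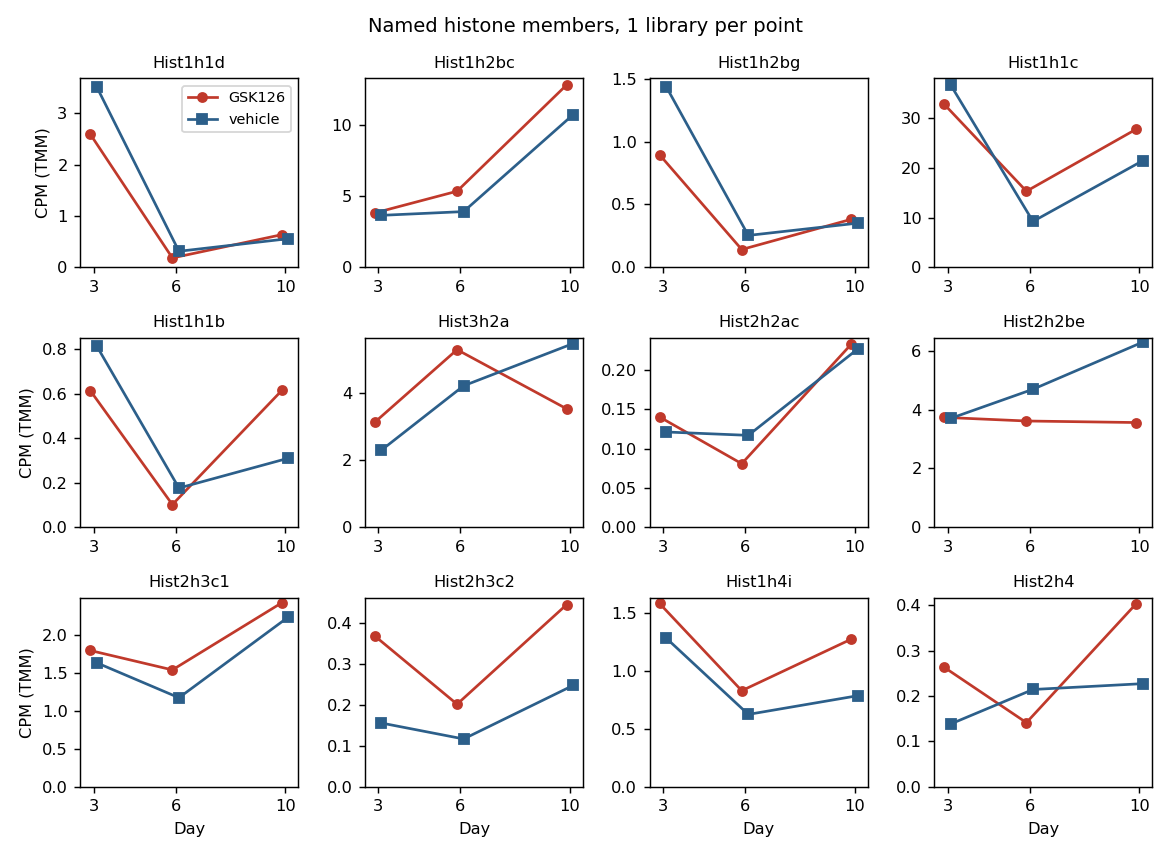
TMM-normalized CPM (y, from 0) on days 3, 6 and 10 (x) for the 12 named members, with GSK126 as red circles and vehicle as blue squares and 1 library per point. Hist1h1d and Hist1h2bg are highest on day 3, Hist1h2bc is highest on day 10, and Hist2h2be and Hist3h2a separate by treatment on day 10.

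In the panels by day, Hist1h1c, Hist1h1b, Hist1h4i, Hist1h1d and Hist1h2bg are all lowest on day 6 under both treatments and lie higher on day 10. The same holds for Hist2h3c1, Hist2h3c2 and Hist2h2ac of the Hist2 cluster. For Hist2h2ac with vehicle the counts of days 3 and 6 are close, at 14 and 12. Fitted values for day 10 against day 6 were 1.02 for Hist1h1c, 1.73 for Hist1h1b, 0.48 for Hist1h4i, 1.30 for Hist1h1d and 0.94 for Hist1h2bg. They were 0.79 for Hist2h3c1, 1.11 for Hist2h3c2 and 1.21 for Hist2h2ac. None of these values passed edgeR's test. Hist1h1d and Hist1h2bg are the members whose lower level on day 10 than on day 3 passed.

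Read across all tested members, the GSK126 term called 0 of 20, against 1.28% of all genes tested, with 11 positive and 9 negative values and a median log2 difference of 0.10 (all genes: -0.00076). At an unadjusted p under 0.05 edgeR's quasi-likelihood test counted 1 member (Hist2h3c2), against 19.6% of all genes, and DESeq2 and limma-voom called 0 each, against 8.87% and 1.79% of the genes they tested. The lowest value was -0.46 (SE 0.32) for Hist1h2bg. On single days, where 2-fold or more was counted among members with at least 1 CPM in either library, 0 of 9 members passed on day 3 (1.67% of all genes), 0 of 5 on day 6 (6.21%) and 0 of 7 on day 10 (5.51%). These are ratios of 1 library to 1, with no test. Missing the threshold does not show that the treatments are alike.

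**Figure D4:**
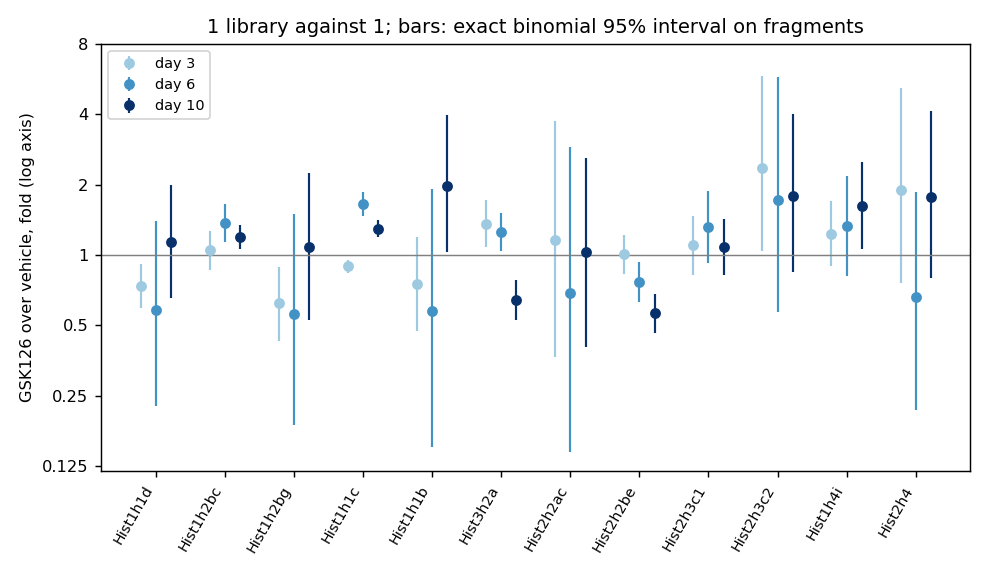
Fold of GSK126 over vehicle (y, log axis) on days 3, 6 and 10 for the 12 named members (x), 1 library against 1, with exact binomial 95% intervals on fragments that cover counting error only. Hist2h2be and Hist3h2a lie below 1 on day 10 at 0.565 and 0.644, and Hist1h1c lies above 1 on days 6 and 10 at 1.66 and 1.30.

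The plot of single-day folds shows how the treatments compare member by member. For Hist1h1c the fold was 0.895 on day 3 (0.841 to 0.953), 1.66 on day 6 (1.48 to 1.86) and 1.30 on day 10 (1.19 to 1.41). The term for day 10 against days 3 and 6 called 0 of 20 members and 0% of all genes, with 10 positive and 10 negative values. At an unadjusted p under 0.05 edgeR counted 1 member, Hist3h2a, against 7.01% of all genes, and DESeq2 and limma-voom called 0. Compound removal and culture time cannot be told apart in that term.

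Between days 3 and 6, 15 of 20 members had negative fitted values (median -0.71, against 0.00056 over all genes), and 10 were under an unadjusted p of 0.05, as were 26.2% of all genes. Hist1h1d alone passed, 1 of 20, against 0.753% of all genes in either direction and 0.237% lower. The count was 0 without either library of day 3 or without the GSK126 library of day 6, 2 without the vehicle library of day 6, and 5 with DESeq2, which called 12.9% of all genes with an adjusted p. Between days 3 and 10, edgeR's quasi-likelihood test called 3 of 20 members, Hist1h2bc higher and Hist1h1d and Hist1h2bg lower, against 26.6% of all genes (14.1% higher and 12.5% lower), so the share of members called was no larger than the background. A total of 12 values were positive and 8 negative. Without the GSK126 library of day 3 or the vehicle library of day 10 the number of members called was 0, and without the vehicle library of day 3 it was 1. Within GSK126, Hist1h2bc was 2-fold or more higher and Hist1h1d lower on day 10 than on day 3 among 8 members with enough counts (9.58% of all genes), and within vehicle Hist3h2a joined the higher and Hist1h2bg the lower members (4 of 8, 9.35%). Between days 6 and 10, 18 of 20 values were positive (median 0.98, against 0.0029 over all genes), but 0 members passed, against 0.00697% of all genes. At an unadjusted p under 0.05 there were 10 members and 28.5% of all genes, DESeq2 called 3 members and 16.9% of genes, and limma-voom called 0 members and 0% of genes. The 3 day comparisons share libraries, so their values are not independent of each other.

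**Figure D5:**
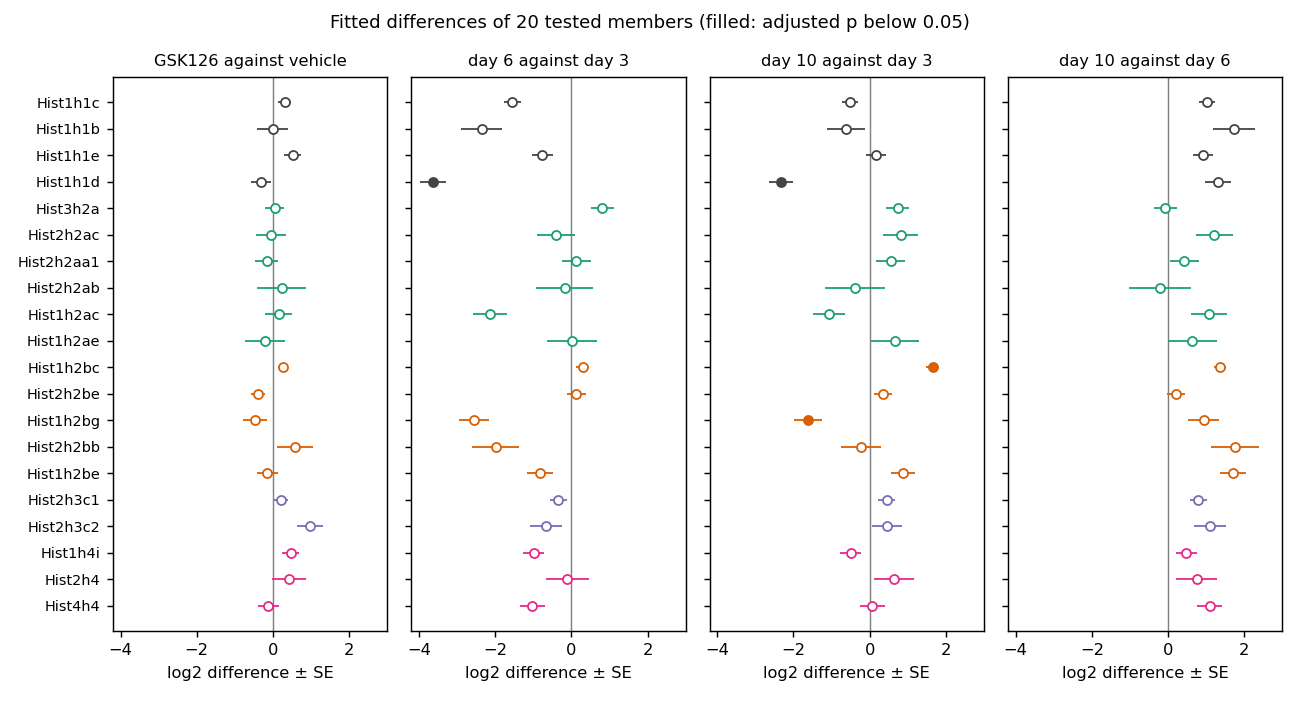
Fitted log2 differences with SE (x) of the 20 tested members (rows, grouped and coloured by type) for GSK126 against vehicle and for the 3 comparisons of days. Filled points have adjusted p below 0.05, which holds for Hist1h1d on days 6 and 10 and for Hist1h2bc and Hist1h2bg on day 10, each against day 3.

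The fitted differences show the day terms spread more widely than the GSK126 term, which lies between -0.46 and 0.96. For day 6 against day 3 the values run between -3.63 and 0.81, with all 4 H1, both H3 and all 3 H4 genes below 0. For day 10 against day 6 all tested H1, H2B, H3 and H4 genes are above 0 and only Hist3h2a and Hist2h2ab lie below it.

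Genes that act with the family were read over the same days. The 20 S phase and replication genes, such as Pcna and the Mcm helicase subunits, summed to 1931 CPM with GSK126 and 1906 with vehicle on day 3, 829 with GSK126 and 1180 with vehicle on day 6, and 3004 with GSK126 and 1850 with vehicle on day 10. For day 6 against day 3 all 20 had negative values (median -0.96) and for day 10 against day 6 all 20 had positive ones (median 1.22), with 0 of 20 passing edgeR's test in either comparison, 20 and 19 under an unadjusted p of 0.05, where all genes gave the shares of 26.2% and 28.5% above. On day 6 these genes were lower with GSK126 than with vehicle, while the histone sum over all members was higher (fold 1.30). Without the highest member of each type the histone sum was lower as well (0.883). The part of the S phase genes in the histone values was not tested. In the term for GSK126 on day 10 against days 3 and 6, all 20 were positive (median 0.94) and 19 were under an unadjusted p of 0.05, against 7.01% of all genes, while 0 passed, with edgeR adjusted p between 0.704 and 0.718. For day 10 against day 3, Ccne2, cyclin E2, rose by 1.31 (SE 0.29, edgeR adjusted p = 0.0286). It was the only gene of this list to pass, where 26.6% of all genes did. Pcna stood at 0.61 (SE 0.20, edgeR adjusted p = 0.0760). For GSK126 the list had 0 calls and 0 genes under an unadjusted p of 0.05, with Pcna at 0.24 and Mcm7 at 0.23.

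Of the 16 genes for histone transcription and 3′ end processing, 2 rose and 2 fell on day 10 against day 3 by edgeR's test, with a median of -0.09. Over all genes 14.1% rose and 12.5% fell, so the share of the list called was no larger than the background. Lsm10, a subunit of the U7 particle that guides cleavage at the histone 3′ end, rose by 0.72 (SE 0.13, edgeR adjusted p = 0.0183), and Hinfp, a transcription factor of H4 genes, fell by 0.61 (SE 0.12, edgeR adjusted p = 0.0227). With GSK126 there were 0 calls and 0 genes under an unadjusted p of 0.05, and the lowest p belonged to Lsm11 at 0.22 and Sympk at 0.15. Replacement and variant histones, whose mRNAs are polyadenylated and made outside S phase as well, summed to 1673 CPM with GSK126 and 1663 with vehicle on day 3, 1386 with GSK126 and 1358 with vehicle on day 6, and 1446 with GSK126 and 1395 with vehicle on day 10. On day 10 against day 3, 1 of 11 rose and 4 fell, against 14.1% and 12.5% of all genes. H3f3a, one of the H3.3 genes, rose by 0.72 (SE 0.10, edgeR adjusted p = 0.0131), and H1f0, the linker histone of resting cells, fell by 0.47 (SE 0.09, edgeR adjusted p = 0.0236). For GSK126 0 of 11 passed and 1 was under an unadjusted p of 0.05, H2afv at -0.40 (SE 0.12, edgeR adjusted p = 0.161), and H2afy2 stood at -1.11 (SE 0.50).

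Few members had an H3K27me3 island within 2 kb. In the authors' deposited table of islands for GSK126, 2 of 68 members (2.94%) had an island on the gene or within 2 kb of it, against 17.5% of all gene rows, and in that for vehicle 7 (10.3%) did, against 20.5%. The shares were not matched for row length or for clustering of rows, and member rows are short (median exon length 479 bases). The lists held 24947 islands with GSK126 and 34498 with vehicle, called on 1 ChIP library each, so the lists differ in length, and a member present in 1 list alone was not tested for a change. Hist4h4 had an island in both: the authors' deposited table gave a fold over input of 2.43 with GSK126 (79 ChIP and 54 input reads), and 2.48 (96 and 65) and 1.73 (34 and 33) with vehicle. Hist3h2ba, an H2B gene with 2 counts in all 6 libraries together, had a deposited fold of 1.97 with GSK126 (115 and 97 reads) and 2.81 with vehicle (127 and 76) in the authors' deposited table. The other 5 members in the vehicle list, Hist1h2ao, Hist1h2ap, Hist1h2bq, Hist1h2br and Hist1h4n, were all reached by 1 island of 3000 bases that lies inside the long span of their rows, with a fold of 4.89 in the authors' deposited table (32 ChIP and 11 input reads), and all 5 stood at 0 counts. Hist1h1c and the 3 members that passed an RNA test had no island within 2 kb in either list.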

How the data were processed

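Libraries were grouped by title and treatment label. The authors deposited raw gene counts, exon lengths and SICER island lists with ChIP and input read counts, a ratio of ChIP to input (fold) and a p-value adjusted by the caller. Per the submitters' processing notes, the tools were TopHat2 2.0.6 and HTSeq 0.5.3p9, BWA 0.5.9 and SICER 1.1, and CASAVA 1.9, with build mm10 (no roles are stated). Annotation release, counting mode and island settings were not given in the sources used here. RNA libraries were TruSeq v2 mRNA, per the labels' protocols.

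The deposited counts were fitted whole with edgeR 4.0.16 (R 4.3.3, quasi-likelihood F test, TMM, filterByExpr on treatment, 14344 genes, additive day and treatment, 2 residual degrees of freedom), with Benjamini-Hochberg adjustment over all genes tested and a threshold of 0.05. A second fit with a term for GSK126 on day 10 had 1. The SE is the fitted difference over the square root of F. The labels do not say whether libraries came from separate cultures, and each p-value therefore reflects only how these 6 libraries vary. The fit's coefficient of biological variation was 14.8%. With 1 library per treatment and day, it comes from what the additive fit leaves over. It therefore includes any change of the GSK126 difference between days and is not a spread between replicates. The same holds for the SE and p-values of the additive fit. The 2-fold rule used CPM ratios with a prior count of 2, and exact binomial 95% intervals used fragments (counts divided by 2). The procedure was tested on simulated data. Alternatives used DESeq2 1.42.0 and limma 3.58.1, other scalings and filters, and each library left out.

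Members and lists were chosen with earlier results of these data known. Counts per library are given for members called in any term, the 2 of each type with the highest CPM per kb, and the largest and smallest GSK126 difference; the partners in shared promoters, Hist1h1t and Hist1h2ac were added after their values were seen. Of each comparison list, the 2 genes of lowest p were named. Promoters come from RefSeq (GRCm38.p6), with no entry for Hist1h2bc, Hist2h2be, Hist2h4, Hist3h2bb-ps, Hist1h2ap, Hist1h3a and Hist1h3f; no genome was used. No columns of per-sample values were left unmapped.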

Additional observations from a re-analysis of the deposited data

How the results depend on the processing

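For GSK126 the number of members called was 0 under every scaling, filter and tool run, in the fit with no day term, which drops the block by day, and without each library. Day 6 against day 3, with 1 call, gave 2 with library size only and 2 with no filter on low counts, 5 with DESeq2, and 0 to 2 when a library was left out. Day 10 against day 3, with 3 calls, gave 0 to 3 without a library. Day 10 against day 6, with 0 calls, gave 1 with no filter and 3 with DESeq2. DESeq2 called 12.9% of the genes it tested for day 6 against day 3 and 16.9% for day 10 against day 6. For the other scalings, the fit with no filter and the fits without a library, the share over all genes was not taken. Their member counts therefore have no background to be read against. The cause of these shifts was not tested. The labels give no replicate numbers, and the day term is the block that pairs the libraries of 1 day. Without the highest member of each type, the summed fold was 0.531 with GSK126 and 0.564 with vehicle for day 6 over day 3, 1.58 with vehicle for day 10 over day 6, and on the other side of 1 for GSK126 over vehicle, at 0.883 on day 6 and 0.874 on day 10; by construction this removes Hist1h1c and Hist1h2bc. Sums without rows that overlap another row, chosen after seeing the data, kept every direction. Island counts over the 68 members were 4 with GSK126 and 16 with vehicle within 10 kb, and 1 with GSK126 at a fold of 2 or more. All 7 members with an island within 2 kb in the vehicle list had one at such a fold. The share over all rows was taken at 2 kb only. Among the 12 named members, signs turned only for differences that had not passed in that comparison. For GSK126, Hist1h1b stood at 0.0225 with counts divided by 2 and 0.0300 with no day term, and Hist3h2a at -0.0037 with no day term. Without 1 library, the GSK126 value ran between -0.54 and 0.26 for Hist1h1b, -0.15 and 0.39 for Hist3h2a, and -0.20 and 0.12 for Hist2h2ac. Day 6 against day 3 ran between -0.16 and 0.46 for Hist2h2be and -0.84 and 0.60 for Hist2h4, day 10 against day 3 between -1.46 and 0.0730 for Hist1h1b, and day 10 against day 6 between -0.61 and 0.41 for Hist3h2a and -0.12 and 0.52 for Hist2h2be. The day 10 term of GSK126 for Hist1h2bc was 0.0045 with no filter and 0.0020 with DESeq2; leaving out a library was not run for it, since no degrees of freedom remain. The filter on low counts left 48 members untested (with no filter, 57 were tested), and fits without a library keep 1 residual degree of freedom.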

Other observations

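Histone chaperones and deposition factors, which carry new histones to DNA, were measured through 11 genes. They summed to 1179 CPM with GSK126 and 1224 with vehicle on day 3, 821 with GSK126 and 1000 with vehicle on day 6, and 1254 with GSK126 and 1107 with vehicle on day 10. All 11 had negative values for day 6 against day 3 (median -0.36), with 0 passing edgeR's quasi-likelihood test and 6 under an unadjusted p of 0.05 (26.2% of all genes). On day 10 against day 3, Daxx, a chaperone of H3.3, fell by 0.55 (SE 0.09, edgeR adjusted p = 0.0163). It was the only one of the 11 to pass, where 26.6% of all genes did. Hira, another H3.3 chaperone, stood at -0.41 (SE 0.12, edgeR adjusted p = 0.0523). For GSK126 there were 0 calls and 0 genes under an unadjusted p of 0.05, with Rbbp7 at -0.23 and Rbbp4 at -0.09.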
